A study of Mus musculus with 6 samples.

Results

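The genes of glycolysis, gluconeogenesis and lactate handling were examined in primary renal tubular epithelial cells (RTECs) with and without transforming growth factor β1 (TGF-β1). The set held 39 of 46517 genes counted, chosen by gene symbol for their place in the pathway with earlier results of these data known. It ran from the glucose transporters to the lactate carriers and the pyruvate dehydrogenase kinases, with the enzymes of glucose synthesis and the transcription factor gene Hif1a. RTECs were cultured from the kidneys of wild type FvB mice. The labels give an age of 4 to 6 weeks and no sex, whereas the study's methods state a somewhat younger age and male mice. All 6 cultures were kept in serum-free medium for 24 h. Afterwards 3 cultures (CTL) stayed untreated and 3 received 50 ng/ml TGF-β1 for 24 h. Polyadenylated RNA was sequenced from each culture.

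Glycolysis splits glucose into pyruvate in the cytosol. Hexokinase, phosphofructokinase and pyruvate kinase catalyse its irreversible steps. Pyruvate either becomes lactate through lactate dehydrogenase or enters mitochondria through pyruvate dehydrogenase, which the pyruvate dehydrogenase kinases inhibit. In the intact kidney the proximal tubule makes glucose from lactate and amino acids and burns mostly fatty acids, while distal segments use more glycolysis.

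Libraries held 28313080 to 34183497 reads on genes, and 3 counts, taken as the floor, were worth 0.0878 to 0.106 CPM (reads scaled to the library total). Of 15 proximal tubule markers, 6 passed the filter on low counts. Their sum over all 15 was 105 to 115 CPM in CTL and 44.1 to 62.5 CPM in TGF-β1 cultures, with Slc5a2 and Kap at no more than 3 counts in any library. Markers of epithelium summed to 960 to 2553 CPM in CTL and 839 to 2109 CPM in TGF-β1 cultures, and those of fibroblasts to 1517 to 2901 and 1794 to 3764 CPM. Cell cycle markers summed to 82.5 to 107 CPM in CTL and 40.9 to 50.5 CPM in TGF-β1 cultures, and 5 of the 6 were called lower (6 with the block). Collecting duct markers summed to 9.69 to 22.1 and 30.0 to 57.3 CPM, nearly all of it Hsd11b2, with Avpr2 and Slc4a1 at no more than 3 counts. The proximal tubule, cell cycle and collecting duct sums did not overlap between the groups. In the collecting duct list Hsd11b2 was called higher, while Scnn1g, the other marker tested, was called lower with the block only. Of 6 epithelial markers 2 were called lower, Cdh16 and Pax8 (4 with the block), as were 2 of 6 tested proximal tubule markers (4 with the block). Of the fibroblast markers 0 were called without the block, and 3 were higher and 2 lower with it. The cultures numbered 2 stood apart in both groups. They had the lowest epithelial and the highest fibroblast sum of their group, but not every marker went that way. Epcam, Cdh1, Krt8 and Krt18 were lowest in them, whereas Pax8 was highest in CTL culture 2 of its group (215 CPM). Col1a1, Col1a2, Col3a1, Pdgfrb and Dcn were highest in them, whereas Postn (331 and 404 CPM) and the scarce Pdgfra were lowest. In addition, 4 Y-linked genes summed to 151 and 142 CPM in the cultures numbered 2, against 0.061 to 0.172 CPM in the other 4 libraries. This goes against the male sex stated in the methods for those 4. In RNA from a mixed culture, fewer cells of a type and less RNA per cell cannot be told apart. The part of these differences in the results was not tested.

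Of the 39 genes, 36 passed the filter and were tested. With TGF-β1, 4 of them fell and 0 rose, which is 11.1% called, close to the 11.7% of all 15862 genes tested. By direction, 6.69% of all genes were called lower and 5% higher. The genes that fell were Hk1, Pfkp, Ldhb and Pdk3. At an unadjusted p under 0.05, edgeR placed 1 gene higher and 9 lower, while 13.2% of all genes were higher and 15.4% lower at that threshold. DESeq2 and limma-voom likewise called 0 higher and 4 lower after adjustment. The median log2 fold change (TGF-β1 over CTL) was -0.07 over the 36 genes and -0.0028 over all genes. For the remaining 32 genes the unpaired test made no call, which does not show that they were unchanged.

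Same-numbered CTL and TGF-β1 cultures deviated from their group means together, so the comparison was also fitted with the replicate number as a block. In that fit 5 of the 36 genes rose and 9 fell, or 38.9%, beside 34.2% of all genes. The background by direction was 15.1% higher and 19.1% lower. The genes called in addition were Gapdh, Pgam1, Eno2, Slc16a3 and Pdhb, which rose, and Gpi1, Pfkl, Aldoc, Pdk1 and Pcx, which fell. Pfkp, Eno2, Ldhb, Pdk3 and Pcx were called with the block whichever replicate number was left out. No share of all genes is given for that rule, so it describes these genes singly and not the set. Without the cultures numbered 1 the blocked fit called 2 genes higher and 4 lower, with 6.43% of all genes called higher and 10.3% lower, and Hk1 was not among the 4. The plot of fold changes shows both fits side by side.

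**Figure D1:**
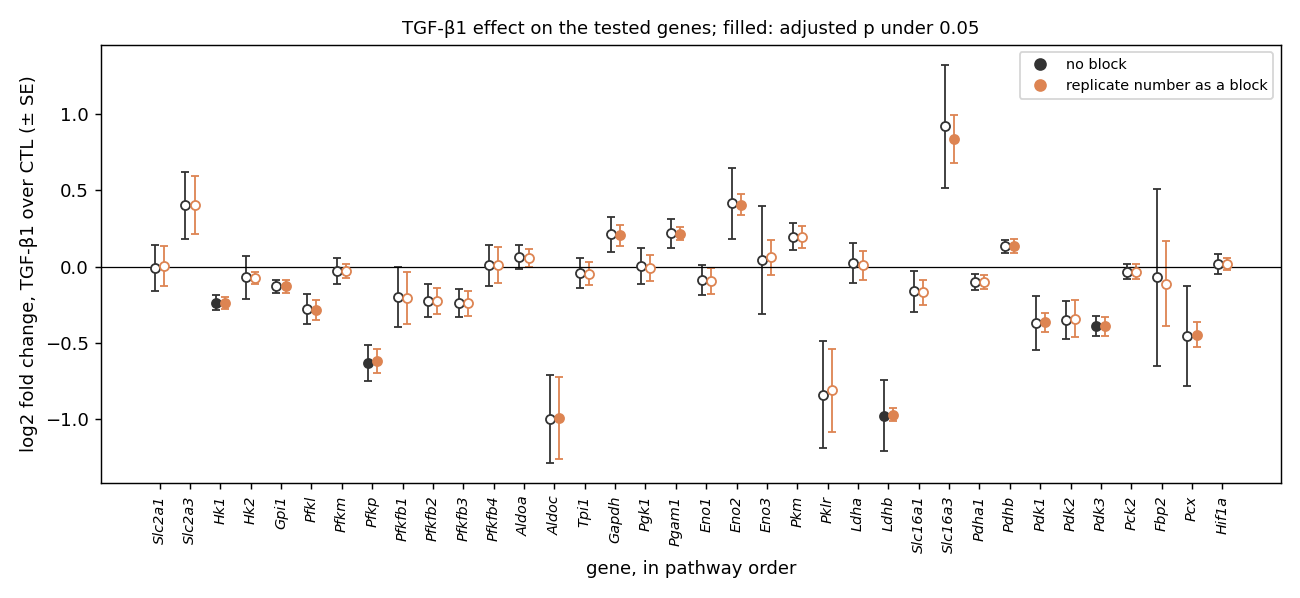
Log2 fold change of TGF-β1 over CTL for the 36 genes tested, in pathway order, with bars of ± 1 SE, without a block (dark) and with the replicate number as a block (orange). Filled points have an adjusted p under 0.05 (edgeR, Benjamini-Hochberg). The estimates hardly move between the fits, while the bars of Ldhb, Eno2, Pcx and Slc16a3 shrink with the block.

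Levels differed far more between genes than between conditions. On the scale of CPM per kb of exon, Ldhb (194 ± 49.6, SD, n = 3), Aldoa (163 ± 5.89) and Pkm (152 ± 7.36) were the highest in CTL cultures, and the SD of Ldhb takes in the levels of both others. In TGF-β1 cultures Pkm (174 ± 17.3) and Aldoa (170 ± 16.3) lay above Ldhb (98.8 ± 22.7) and Ldha (97.3 ± 18.9). This order depends on the length used, all annotated exons of a gene merged. It was 1570 bases for Ldhb, 2911 for Aldoa, 3310 for Ldha and 5001 for Pkm. In reads scaled to a common library size and not divided by length, the CTL order was another. Pkm had 23995 ± 1165, Aldoa 15022 ± 543, Ldha 10011 ± 189 and Ldhb 9650 ± 2465. At the other end stood the genes that commit a cell to making glucose. Pck1, the cytosolic enzyme that turns oxaloacetate into phosphoenolpyruvate, reached at most 14 counts in a library. Fbp1, which removes a phosphate from fructose 1,6-bisphosphate, reached 7, and G6pc, which releases free glucose, reached 2. These 3 genes did not pass the filter on low counts and were not tested with the others.

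**Figure D2:**
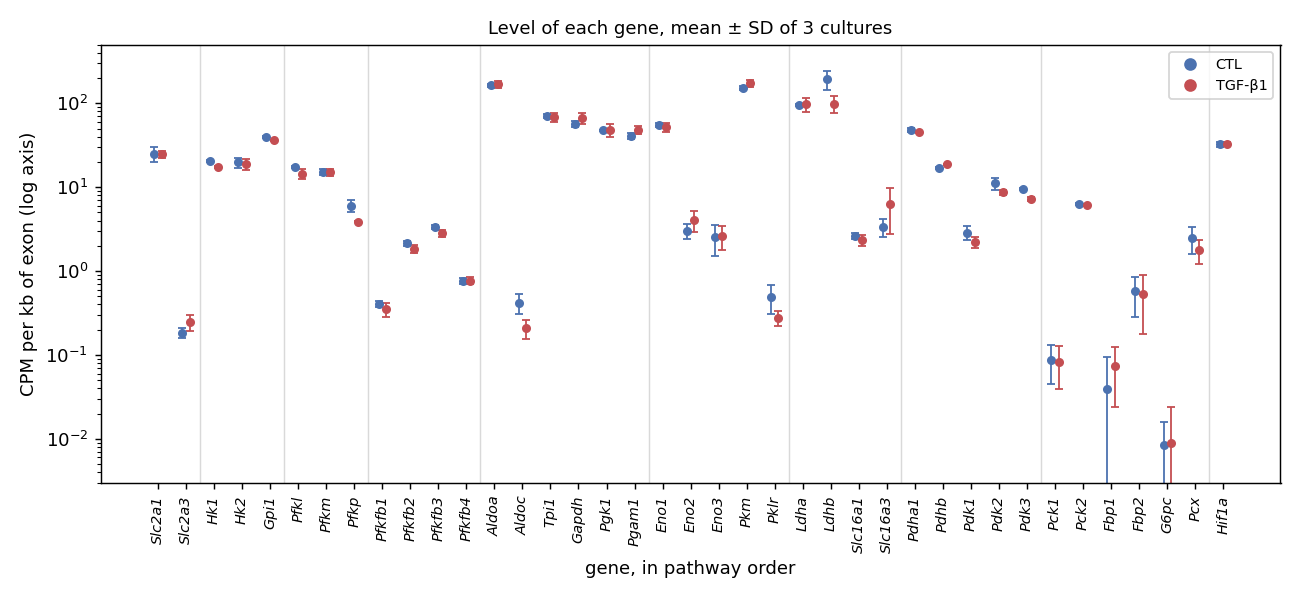
Level of all 39 genes in CPM per kb of exon on a log axis, mean ± SD of 3 CTL (blue) and 3 TGF-β1 (red) cultures, in pathway order with grey lines between steps. Aldoa, Pkm, Ldha and Ldhb sit highest, between 95.5 and 194 CPM per kb, and Pck1, Fbp1 and G6pc sit lowest in both groups.

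Neither glucose transporter gene of the set was called in either fit. Slc2a1, which encodes the widely expressed transporter GLUT1, had 2687, 2253 and 3331 normalized counts in CTL cultures 1 to 3 and 2487, 2999 and 2748 in TGF-β1 cultures (log2 fold change -0.01, SE 0.15). Normalized counts are reads scaled to a common library size by the trimmed mean of M values (TMM). Slc2a3, encoding the high-affinity transporter GLUT3, was at most 65 counts in any library and had a log2 fold change of 0.40 (SE 0.22, adjusted p = 0.288).

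Of the hexokinases, which phosphorylate glucose on entry, Hk1 fell and Hk2 was not called. Hk1 (chr10:62268855-62379908, GRCm38) had 5674, 5362 and 5640 normalized counts in CTL cultures and 4692, 4562 and 4899 in TGF-β1 cultures. The groups did not overlap. Its log2 fold change was -0.24 (SE 0.05, adjusted p = 0.0325; 0.00342 with the block), or 0.849 of the CTL level. That call was lost in the unblocked fit whenever any single culture was left out, with adjusted p up to 0.153. Hk2, the inducible hexokinase, had 3721 ± 491 normalized counts in CTL and 3546 ± 535 in TGF-β1 cultures (log2 fold change -0.07, SE 0.14), and its groups overlapped. Gpi1, the isomerase that follows, had 8013, 8240 and 8050 against 7308, 7566 and 7355, a log2 fold change of -0.13. With TMM scaling and all cultures it passed only with the block (adjusted p = 0.0434, against 0.111 without). The blocked call was lost without the cultures numbered 1 or 3 (adjusted p = 0.317 and 0.119). Scaling by library size alone gave a call without the block (adjusted p = 0.03).

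Phosphofructokinase, the main control point of glycolysis, is built from the products of 3 subunit genes. Of these 1 was called without and 2 with the block, beside 11.7% and 34.2% of all genes tested. Pfkp, the platelet-type subunit (chr13:6579768-6648777), fell from 3045, 2375 and 2246 normalized counts to 1680, 1620 and 1651. All TGF-β1 cultures lay below all CTL cultures, with an SD of 30.0 in TGF-β1 and 429 in CTL cultures. The log2 fold change was -0.63 (SE 0.12, adjusted p = 0.0242; 0.00101 with the block). Without the block the call held when any CTL culture was left out and was lost when any TGF-β1 culture was, with adjusted p up to 0.0928. Pfkl, the liver-type subunit, had 3519, 3746 and 3781 against 2742, 3521 and 2862, with TGF-β1 culture 2 inside the CTL range. It was called only with the block (log2 fold change -0.28, adjusted p = 0.0114, against 0.132), and also without the block once TGF-β1 culture 2 was left out. Pfkm, the muscle-type subunit, had 1622 ± 136 and 1592 ± 136 (log2 fold change -0.03, SE 0.09).

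The 4 bifunctional enzymes Pfkfb1 to Pfkfb4, which make and remove the activator fructose 2,6-bisphosphate, gave no call in either fit. Their log2 fold changes were -0.20, -0.22, -0.24 and 0.01. Pfkfb3, the highest of the 4 per kb of exon, had 806, 754 and 848 normalized counts in CTL cultures and 635, 755 and 653 in TGF-β1 cultures. Its adjusted p was 0.143 without and 0.0597 with the block.

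From aldolase to phosphoglycerate mutase, 0 of the 6 genes were called without the block, and with it 2 rose and 1 fell. With the block 15.1% of all genes tested were called higher and 19.1% lower, so so few genes say little about a step. Aldoa, the main aldolase of these cultures, had a log2 fold change of 0.06 (SE 0.08), Tpi1 of -0.04 (SE 0.10) and Pgk1 of 0.01 (SE 0.12). Aldoc, the brain-type aldolase, was scarce, with 57.0, 37.5 and 36.0 normalized counts in CTL cultures and 18.3, 18.6 and 28.2 in TGF-β1 cultures. The groups did not overlap, and the log2 fold change of -0.996 passed only with the block (adjusted p = 0.0243, against 0.0773). Gapdh, often used as a reference gene, had 6820, 7816 and 7853 against 8007, 10101 and 7936 (log2 fold change 0.21, adjusted p = 0.278 without and 0.0482 with the block). Pgam1, phosphoglycerate mutase, had 2522, 2816 and 2423 against 2792, 3378 and 2869 (0.22, adjusted p = 0.185 and 0.00735). Gapdh and Pgam1 were higher in each of the same-numbered pairs, but in Gapdh the pair numbered 3 differed by 0.02 on the log2 scale.

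Of the enolases, Eno2, the neuron-type form, was the only one called. It had 446, 546 and 364 normalized counts in CTL and 566, 783 and 464 in TGF-β1 cultures, so the groups overlapped while each pair rose, by 0.34, 0.52 and 0.35 on the log2 scale. The adjusted p was 0.301 without and 0.00347 with the block. Eno1, the common enolase, had a log2 fold change of -0.09 (SE 0.10), and Eno3, the muscle form, of 0.04 (SE 0.35). Pkm, which encodes the pyruvate kinase of most dividing and muscle cells, had 23688, 23014 and 25283 against 25886, 30683 and 26012. Its groups did not overlap, but it was not called in either fit (log2 fold change 0.20, adjusted p = 0.2 and 0.079). The liver and red cell pyruvate kinase gene Pklr had 50.9 ± 19.6 against 28.5 ± 5.94 (log2 fold change -0.84, SE 0.35, adjusted p = 0.18 and 0.0518).

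The largest fall among the called genes without the block was in Ldhb, the lactate dehydrogenase subunit typical of heart and of oxidative tissues (chr6:142490249-142507957). CTL cultures had 9010, 7567 and 12372 normalized counts and TGF-β1 cultures 4522, 4028 and 6177. Each pair fell by about the same amount, -0.995, -0.910 and -1.002 on the log2 scale, although the cultures within a group spread widely. The log2 fold change was -0.97 (SE 0.23), or 0.509 of the CTL level, with an adjusted p of 0.0492 without and 6.06e-06 with the block. The unblocked call was lost whenever any single culture was left out (adjusted p 0.0505 to 0.162), while the blocked call held without any replicate number. It was lost without the block when the reads of its pseudogene Gm5514 were added (adjusted p = 0.0537). Ldha, the subunit of muscle and of glycolytic cells, had 9801, 10064 and 10168 against 8850, 12462 and 9267. Its log2 fold change was 0.03 (SE 0.13) with all cultures and -0.15 without TGF-β1 culture 2.

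Slc16a3, which encodes the lactate exporter MCT4, had the largest upward fold change of the 36 genes. It had 460, 713 and 508 normalized counts in CTL and 681, 1754 and 753 in TGF-β1 cultures (chr11:120948480-120960868). TGF-β1 culture 2 stood far above all others, and TGF-β1 culture 1 lay within the CTL range. The log2 fold change of 0.92 (SE 0.40) was not called without the block (adjusted p = 0.199) and was 0.84 with it (adjusted p = 0.01). Leaving out TGF-β1 culture 2 alone lowered it to 0.35, and leaving out both cultures numbered 2 gave 0.57 with the block (adjusted p = 0.000444). With the block it was not called without the cultures numbered 3 (adjusted p = 0.121). The same culture had a fibroblast marker sum of 3764 CPM, the highest of the 6. Slc16a1, the carrier MCT1 of lactate and pyruvate, had 369 ± 34.0 against 330 ± 50.3 (log2 fold change -0.16, SE 0.14).

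**Figure D3:**
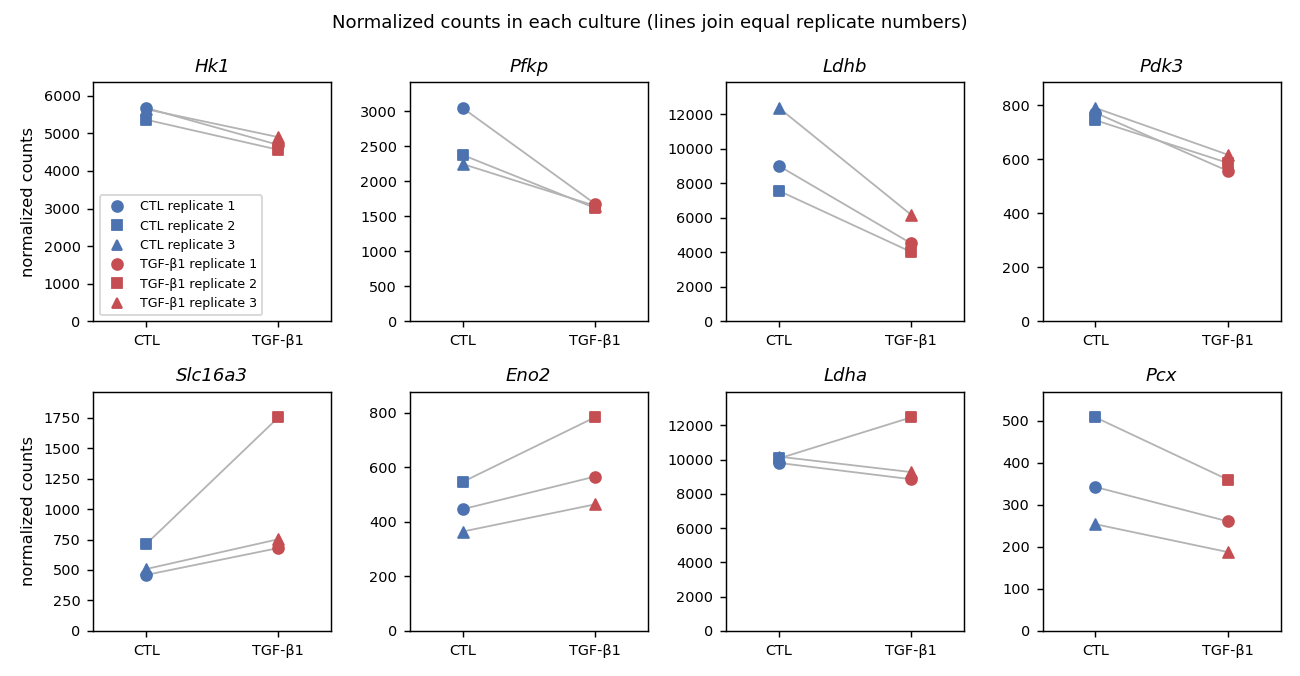
Normalized counts of 8 genes in each culture, with axes from 0, blue for CTL, red for TGF-β1, a marker shape per replicate number and lines between equal numbers. Hk1, Pfkp, Ldhb and Pdk3 fall in all 3 pairs without overlap of the groups, Eno2 rises and Pcx falls along parallel lines, and TGF-β1 culture 2 is highest for Slc16a3 and Ldha.

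At the gate to the mitochondrion, the kinase Pdk3 fell. Pdk3, on the X chromosome (chrX:93764607-93832201), had 773, 745 and 791 normalized counts in CTL and 558, 587 and 618 in TGF-β1 cultures, with a gap between the groups. The log2 fold change was -0.39 (SE 0.07, adjusted p = 0.0184; 0.00218 with the block), the smallest adjusted p of the 36 genes without the block. That call was lost without CTL culture 1, CTL culture 3 or TGF-β1 culture 1, with adjusted p up to 0.0992. Pdk1 had 749, 559 and 822 against 570, 459 and 620, and was called only with the block (-0.37, adjusted p = 0.00337, against 0.23). Pdk2 had 1086, 1303 and 942 against 867, 817 and 933 and was not called (-0.35, adjusted p = 0.131 and 0.0735). All 3 kinase genes of the set were lower in each pair, as were 32.6% of all genes tested. A further kinase gene, Pdk4, which is outside the set, was higher in each pair. It had 1254 ± 604 against 1713 ± 830 normalized counts, with overlap (log2 fold change 0.45, adjusted p = 0.598 without and 0.0442 with the block). Of the pyruvate dehydrogenase subunits that the kinases act on or accompany, Pdha1 had a log2 fold change of -0.10 (SE 0.05, adjusted p = 0.279). Pdhb had 2137, 2032 and 2080 against 2261, 2286 and 2321 and was called only with the block (0.14, adjusted p = 0.0487, against 0.0937).

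Of the genes of glucose synthesis, Pcx, the pyruvate carboxylase that also refills the citric acid cycle, fell in the blocked fit. It had 343, 509 and 254 normalized counts in CTL and 261, 360 and 188 in TGF-β1 cultures, an overlap between groups with a fall in each pair (log2 fold change -0.45, adjusted p = 0.428 without and 0.004 with the block). Pck2, the mitochondrial counterpart of Pck1, was steady at 1560 ± 46.0 and 1527 ± 35.0 (log2 fold change -0.03, SE 0.05). Fbp2, the muscle form of the bisphosphatase, ranged from 12.5 to 39.3 in CTL and from 15.2 to 44.1 in TGF-β1 cultures. Hif1a, the oxygen-regulated subunit of the factor that drives many glycolytic genes in hypoxia, had 5940, 6413 and 5738 against 5948, 6501 and 5873 (log2 fold change 0.02, SE 0.07).

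Promoters of the 4 genes called without the block and of Slc16a3, the gene with the largest upward fold change, are shown to set their sequences beside these values. They run from 250 bases before to 50 after the start of the transcript (RefSeq, GRCm38.p6). Capitals mark the core of the hypoxia response element, ACGTG, or its reverse complement CACGT. The windows are chr10:62379859-62380158, strand minus and chr10:62340372-62340671, strand minus for the 2 starts of Hk1, chr13:6648722-6649021, strand minus for Pfkp, chr6:142507908-142508207, strand minus for Ldhb, chrX:93832101-93832400, strand minus for Pdk3 and chr11:120948817-120949116, strand plus for Slc16a3.
Hk1 upstream start: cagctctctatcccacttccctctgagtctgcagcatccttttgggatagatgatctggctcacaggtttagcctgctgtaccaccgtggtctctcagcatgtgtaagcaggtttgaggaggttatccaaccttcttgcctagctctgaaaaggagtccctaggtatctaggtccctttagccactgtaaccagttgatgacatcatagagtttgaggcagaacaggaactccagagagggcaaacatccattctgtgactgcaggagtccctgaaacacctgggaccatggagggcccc
Hk1 downstream start: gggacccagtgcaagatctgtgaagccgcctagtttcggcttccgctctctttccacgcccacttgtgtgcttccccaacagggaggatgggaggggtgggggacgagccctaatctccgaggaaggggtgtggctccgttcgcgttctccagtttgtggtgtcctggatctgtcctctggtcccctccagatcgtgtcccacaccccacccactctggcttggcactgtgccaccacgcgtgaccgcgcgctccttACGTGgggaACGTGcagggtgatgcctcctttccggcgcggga
Pfkp: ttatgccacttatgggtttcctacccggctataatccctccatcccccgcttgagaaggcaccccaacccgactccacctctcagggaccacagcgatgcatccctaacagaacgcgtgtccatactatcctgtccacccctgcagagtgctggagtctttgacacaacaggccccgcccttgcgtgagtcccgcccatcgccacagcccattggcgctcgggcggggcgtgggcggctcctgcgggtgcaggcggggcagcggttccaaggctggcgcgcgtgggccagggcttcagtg
Ldhb: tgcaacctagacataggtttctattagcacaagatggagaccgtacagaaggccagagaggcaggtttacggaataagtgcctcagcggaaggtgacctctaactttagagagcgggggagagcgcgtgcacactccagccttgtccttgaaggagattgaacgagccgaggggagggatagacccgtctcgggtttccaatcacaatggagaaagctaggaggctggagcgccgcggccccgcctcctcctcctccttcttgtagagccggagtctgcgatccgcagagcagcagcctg
Pdk3: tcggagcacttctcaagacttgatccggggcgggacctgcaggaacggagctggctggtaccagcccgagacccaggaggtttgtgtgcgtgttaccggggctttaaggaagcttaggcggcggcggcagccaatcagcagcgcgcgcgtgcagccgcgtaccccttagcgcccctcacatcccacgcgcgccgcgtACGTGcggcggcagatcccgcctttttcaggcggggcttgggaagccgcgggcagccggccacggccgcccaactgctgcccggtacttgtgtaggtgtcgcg
Slc16a3: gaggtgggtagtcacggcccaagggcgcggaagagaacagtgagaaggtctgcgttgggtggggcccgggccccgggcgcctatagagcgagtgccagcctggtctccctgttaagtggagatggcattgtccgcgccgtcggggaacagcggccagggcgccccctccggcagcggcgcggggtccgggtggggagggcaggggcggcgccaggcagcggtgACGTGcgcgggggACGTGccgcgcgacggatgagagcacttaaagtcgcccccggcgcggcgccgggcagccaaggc
The core occurred 2 times in the Hk1 downstream window, 1 time in that of Pdk3 and 2 times in that of Slc16a3, and 0 times in the others. RefSeq windows were found for 38 of the 39 genes (59 windows in all, none for Slc2a3). Of these, 42.4% held the core on either strand, against 19.6% of all 32851 windows, and the median GC content was 57.3% against 52.7%. The core of the Notch partner RBPJ, TGGGAA or TTCCCA, was in 23.7% of the windows against 25.6% of all. A match of letters does not show that a factor binds.

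Shares within gene families were compared inside each library, where library size cancels. They depend on the merged exon length, which was 3310 bases for Ldha and 1570 for Ldhb. It was 13401 for Pfkp, 6675 for Pfkl and 3340 for Pfkm. In normalized counts CTL cultures had 3682 ± 142 for Pfkl, 2555 ± 429 for Pfkp and 1622 ± 136 for Pfkm, another order than by share. The difference of a log2 ratio between groups does not depend on length. Per kb of exon, Ldha made up 34.0%, 38.7% and 28.1% of the Ldha and Ldhb total in CTL cultures and 48.1%, 59.5% and 41.6% in TGF-β1 cultures. The log2 ratio of Ldha to Ldhb was higher by 0.98 with TGF-β1 without overlap between the groups. Since the Ldha level was close in both groups, this difference carries the fall of Ldhb and is no separate result. Pfkm made up 39.5 ± 1.99% of the 3 phosphofructokinase subunits in CTL and 45.2 ± 0.755% in TGF-β1 cultures, and Pfkp 15.5 ± 2.50% and 11.8 ± 1.25%. Slc16a3 held 55.4 ± 7.58% of the MCT1 and MCT4 total in CTL and 69.9 ± 11.8% in TGF-β1 cultures, with overlap. Of 14 ratios fixed for comparison, 4 did not overlap between groups, namely Ldha to Ldhb, Pkm to Pklr and Pfkm to Pfkl, which were higher, and Aldoc to Aldoa, which was lower. Each had p = 0.1 by a two-sided exact permutation test, the smallest that 3 against 3 allows, and 0.35 after Benjamini-Hochberg adjustment over the 14. The log2 ratios of Pkm to Pklr nearly touched, at 9.173 in CTL culture 3 and 9.176 in TGF-β1 culture 3, with Pklr at 22 to 67 counts. The difference in Aldoc to Aldoa carries the fall of Aldoc, which had 18 to 59 counts. Pfkm was close in both groups (log2 fold change -0.03), so its ratio to Pfkl carries the lower Pfkl (-0.28). The higher Pfkm share likewise carries the lower Pfkl and Pfkp (-0.63), and neither is a separate result.

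**Figure D4:**
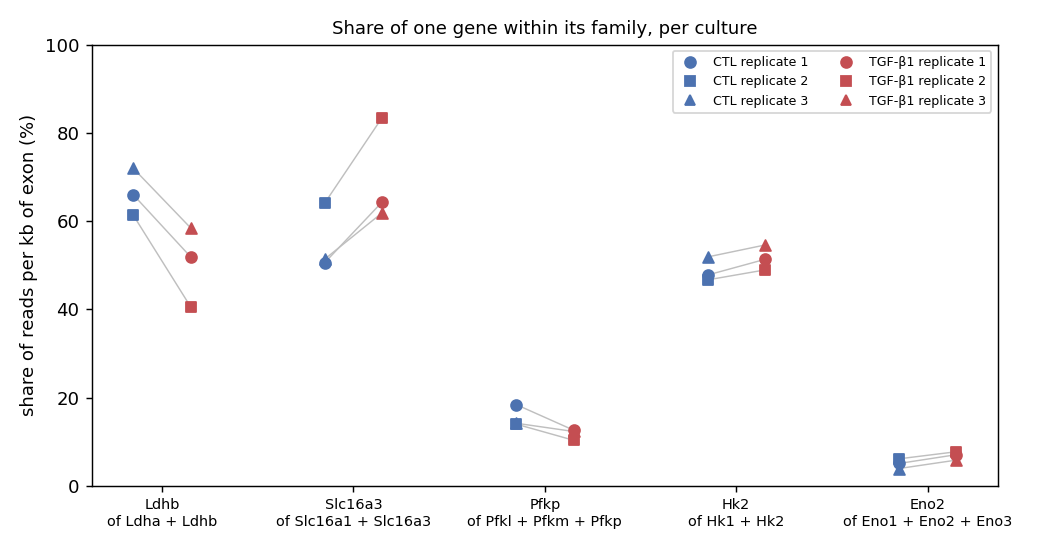
Share of one gene in the reads per kb of exon of its family, in percent, for each of the 3 CTL (blue) and 3 TGF-β1 (red) cultures, with lines between equal replicate numbers. The Ldhb share is lower in every TGF-β1 culture than in every CTL culture, and the Slc16a3 share is higher within each pair.

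The direction within pairs showed how the genes divided. Of the 36 genes, 15 (41.7%) were lower and 8 (22.2%) higher in all 3 same-numbered pairs, while 32.6% and 30.4% of all genes tested were. The groups did not overlap for 8 genes that were lower (22.2%, against 18% of all genes) and 3 that were higher (8.33%, against 17.2%). The pair numbered 1 was opposite to the other pairs for 1 gene and the pair numbered 3 for 4 genes. Slc2a1, Pfkfb3, Tpi1, Pgk1, Eno1, Eno3, Ldha and Pck2 moved one way in the pairs numbered 1 and 3 and the other way in the pair numbered 2. No share of all genes is given for opposite pairs, so these counts describe the genes singly and not the set. Leaving out both cultures numbered 2 leaves pairs that point one way for these genes by construction, so their values there are a description. The log2 fold change with the block was then -0.20 for Slc2a1, -0.36 for Pfkfb3, -0.16 for Tpi1, -0.15 for Pgk1, -0.22 for Eno1 and -0.14 for Ldha. For Pck2 and Eno3 it was -0.07 and 0.13, and neither was called. Over all members that fit called 15 lower and 3 higher, where it called 17% of all genes lower and 14.3% higher. The 15 include Slc2a1, Pfkfb3, Tpi1, Pgk1, Eno1 and Ldha.

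**Figure D5:**
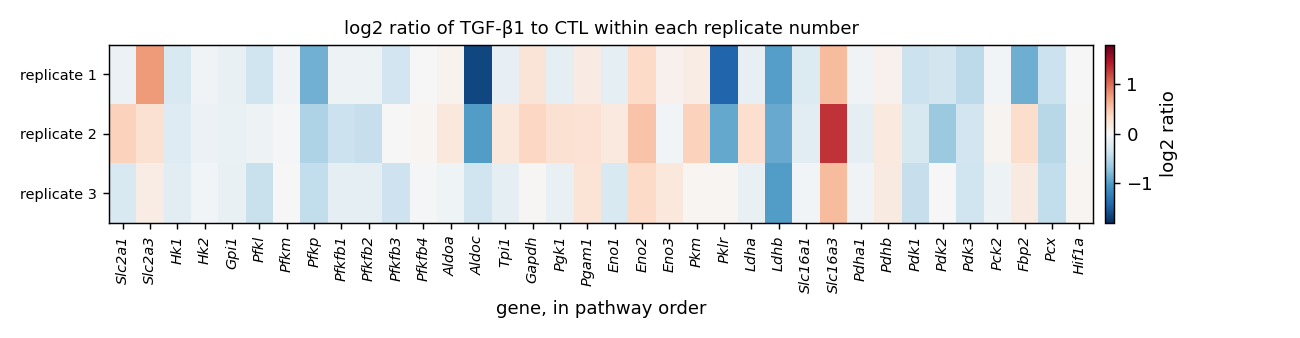
Log2 ratio of the TGF-β1 to the CTL culture within each replicate number for the 36 genes tested, in pathway order, with red for higher and blue for lower with TGF-β1. Ldhb, Pfkp and Hk1 are blue in all 3 rows, and Tpi1, Pgk1, Eno1 and Ldha are red only in replicate 2.

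Several glycolytic genes have processed copies in the genome, and reads that align to more than 1 place were left out of the counts. Of the distinct 50-base stretches of the coding transcripts, 68% in Pgk1, 58.4% in Gapdh, 49.5% in Eno1, 41.5% in Pgam1, 30.3% in Pdhb and 21% in Ldhb also occur in another annotated gene. The levels of these genes are therefore too low by an unknown amount, while the comparison between groups uses the same rule in every library. Reads on 81 annotated copies of Gapdh came to 4828 to 6074 a library, beside 7062 to 9752 on Gapdh itself, and those on the 1 copy of Ldhb to 216 to 913. Adding such reads to 9 parent genes left every call of the blocked fit as it was.

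Outside the 39 genes, 69 further genes of glucose, pyruvate and lactate metabolism were listed and 60 tested. Without the block 1 rose and 9 fell (16.7%), beside 11.7% of all genes called, 5% higher and 6.69% lower. With it 7 rose and 20 fell (45%), beside 34.2% of all genes, 15.1% higher and 19.1% lower. The gene that rose without the block was Egln1, the oxygen sensor that marks HIF for breakdown. It had 2746 ± 38.5 against 3398 ± 189 normalized counts (log2 fold change 0.31, adjusted p = 0.0195). Hkdc1, a hexokinase-like gene next to Hk1, fell by 1.62 on the log2 scale (adjusted p = 0.0105), and Ldhd, which oxidises D-lactate, fell by 1.05 (adjusted p = 0.0173). The glucose transporter Slc2a2 and the urate transporter Slc2a9 fell by 1.08 and 0.70 (adjusted p = 0.0318 and 0.033). Epas1, a HIF alpha subunit gene, fell by 1.17 (adjusted p = 0.029), and Pdp1, the phosphatase that opposes the pyruvate dehydrogenase kinases, fell by 0.42 (adjusted p = 0.0403). Galm, Mdh1 and Tkt fell by 0.64, 0.21 and 0.30. These calls came from the unblocked fit, and each was lost in some of the 6 fits with 1 culture left out. Hkdc1 and Ldhd were called in 4 of those fits, Egln1 in 2, Mdh1 in 0 and the rest in 1. Slc2a2 had only 20 to 66 and Hkdc1 18 to 78 counts.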

How the data were processed

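RNA sequencing of 3 CTL and 3 TGF-β1 cultures of mouse RTECs was analysed. Each culture had its own table of gene-level read counts from the authors, produced per the labels with Trim Galore, STAR 2.4.1d on GRCm38 and HTSeq 0.6.1. These deposited counts are whole reads without normalization, and reads with several alignments, 18.7 to 19.4% of the records, or on several genes were kept only as totals at the table's end and left out here. The annotation release and strand setting are not given in the sources used here. Gene symbols and exon lengths came from GENCODE M21 (46005 of 46517 identifiers matched). The length of a gene was that of all its annotated exons merged, whichever transcripts the cultures made. Nothing states that cultures came from separate mice, so p-values measure the spread between these cultures.

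Counts were tested in R 4.3.3 with edgeR 4.0.16 (filterByExpr, TMM, glmQLFit with robust estimation, glmQLFTest, two-sided) and Benjamini-Hochberg adjustment over 15862 genes at 0.05. The SE of a log2 fold change was derived from the F statistic. Correlations of the deviations from group means were 0.34, 0.684 and 0.572 for cultures sharing a number and -0.617 to 0.215 for the rest, so the numbers were taken to pair the cultures. The blocked p stands beside a result where it changes the call. No libraries were duplicates (smallest chi-square per degree of freedom 9.82). Alternatives used DESeq2 1.42.0, limma-voom (limma 3.58.1), other scalings, filters and depth, a threshold of 0.01, and fewer cultures. Pseudogenes sharing at least 100 stretches of 50 bases with a gene were added to it in an alternative chosen after seeing the data. The models were tested on simulated data in which 200 genes changed by a full log2 unit and cultures had no replicate effect. That setting cannot check the blocked fit on paired cultures or smaller fold changes. The floor of 3 counts covers counting error only, since reads had no molecular identifiers. Genes were named when called in either fit, with the rate-controlling enzymes and Hif1a always given, and other pathway genes when called without the block. Pdk4 was given beside the other kinases whatever its test. The members and lists were chosen with earlier results of these data known. Figures were drawn with matplotlib 3.10.9.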

Additional observations from a re-analysis of the deposited data

How the results depend on the processing

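Hk1, Pfkp, Ldhb and Pdk3 were the genes called lower under DESeq2, RLE normalization, limma-voom and down-sampling, and library size alone added Gpi1. Ldhb was lost under both other filters on low counts. At an edgeR adjusted p of 0.01, 0 of the 36 genes were called without the block. The replicate block gave 5 genes higher and 9 lower, and the same counts when pseudogene reads were added. Leaving out 1 culture or 1 replicate number, with or without the block, gave 0 to 4 higher and 0 to 15 lower. With no filter beyond 1 count, Pck1, Fbp1 and G6pc were tested too and not called.

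Over all genes, 793 were higher and 1061 lower. DESeq2 called 1201 higher, library size alone 508 higher, the replicate block 2388 higher and 3037 lower (2392 and 3036 with pseudogene reads added), and the threshold of 0.01 left 127 and 192. Leaving out cultures gave 0 to 2581 higher and 0 to 3254 lower. Of the other pathway genes, 2 were higher under RLE, limma-voom and down-sampling, 7 higher and 20 lower with the replicate block, with and without pseudogene reads, and 0 at 0.01. Leaving out cultures gave 0 to 6 higher and 0 to 19 lower.

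The sign of the log2 fold change turned for genes that were not called in either fit. Library size alone, which moved the median of all genes to -0.0767, gave -0.0654 for Pfkfb4, -0.0109 for Aldoa, -0.0702 for Pgk1, -0.0319 for Eno3, -0.0502 for Ldha and -0.0561 for Hif1a. The replicate block gave 0.00587 for Slc2a1 and -0.00677 for Pgk1 (0.00643 and -0.011 with pseudogene reads added), and limma-voom gave 0.00966 and -0.00812. Leaving out cultures gave -0.199 to 0.153 for Slc2a1, -0.191 to 0.0374 for Hk2, -0.104 to 0.039 for Pfkm, -0.0596 to 0.0827 for Pfkfb4 and -0.0224 to 0.132 for Aldoa. It gave -0.164 to 0.0369 for Tpi1, -0.149 to 0.0989 for Pgk1, -0.225 to 0.00511 for Eno1, -0.245 to 0.414 for Eno3 and -0.149 to 0.123 for Ldha. For Pck2, Fbp2 and Hif1a the ranges were -0.0715 to 0.000593, -0.774 to 0.314 and -0.0338 to 0.0655. The cause was not tested. Of the 14 isozyme ratios, 9 kept the sign of their difference with counts not scaled by length, within pairs and with cultures left out. The other 5, Pfkfb3 to Pfkfb2, Eno3 to Eno1, Pdk1 to Pdk2, Pdk3 to Pdk2 and Pck1 to Pck2, whose groups all overlapped, turned sign when some cultures were left out. Pck1 to Pck2 moved by more than the spread between cultures, to -0.884, without the cultures numbered 1.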
